A study of Homo sapiens with 6 samples.

Results

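MHC class I presentation genes are described here in total RNA of SEM cells, a human B-cell acute lymphoblastic leukemia line. The 9 genes were taken by symbol: the heavy chains *HLA-B*, *HLA-C*, *HLA-E* and *HLA-F*, the light chain *B2M*, the peptide transporter subunits *TAP1* and *TAP2*, the loading factor *TAPBP*, and the transactivator *NLRC5*. They hold 10 of the 57820 gene rows of the deposited tables, because *TAP2* is listed in 2 rows. The 3 CTCF-WT libraries were compared with 3 CTCF-dRBR libraries, which asks whether the RNA-binding region (RBR) of CTCF matters for transcript levels. Every library came from a derivative of SEM that constitutively expresses OsTIR1 F74G and whose endogenous CTCF carries a miniAID-mClover3 tag, so that the auxin analog 5-Ph-IAA directs the tagged protein to degradation. CTCF-AID2/WT cells (CTCF-WT) carry a doxycycline-inducible HA-tagged wild-type CTCF, and CTCF-AID2/dRBR cells (CTCF-dRBR) carry the HA-tagged form without the RBR. Both received 5-Ph-IAA for 24 h in total and 1 µg/mL doxycycline for the last 18 h, so that induction began after 6 h of degradation. For CTCF-WT the labels mention the tagged endogenous protein and no transgene, so the group was taken from the titles. Each group rests on 1 engineered line, and no source says that the replicates were separate cultures, so p-values measure the spread between these libraries, which may be technical.

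An MHC class I molecule is a heavy chain bound to the light chain encoded by *B2M*, with a peptide in the groove of the heavy chain. Peptides made by the proteasome enter the endoplasmic reticulum through the transporter built from *TAP1* and *TAP2*, and tapasin, the product of *TAPBP*, bridges this transporter to empty class I molecules while they are loaded. *NLRC5* binds no DNA itself and acts through factors assembled on an SXY module in the promoters of class I genes, and B lymphocytes express the pathway constitutively.

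Total expected counts lay between 51732177 and 53166735 in CTCF-WT and between 30034505 and 50457168 in CTCF-dRBR, with CTCF-dRBR replicate 1 the shallowest. This library also stood apart from the rest: across genes, GC content and the log2 CPM of this library relative to the 6-library mean had a Spearman correlation of −0.789, against 0.716, 0.681 and 0.327 in the CTCF-WT libraries and −0.448 and 0.511 in CTCF-dRBR replicates 2 and 3. Genes are not independent replicates, so these coefficients are descriptions. CPM are counts scaled to library size and normalized by TMM, a correction for composition. Of the B-lineage markers, 9 of 10 passed the filter of at least 1 CPM in any library, with a summed level of 855 to 1040 CPM in CTCF-WT and 568 to 993 CPM in CTCF-dRBR. Of the markers of other blood cells, 1 of 7 for T cells, 3 of 6 for myeloid cells, 1 of 4 for NK cells and 0 of 5 for erythroid cells passed it. Summed levels in CTCF-WT and CTCF-dRBR were 42.6 to 44.6 and 40.6 to 48.9 CPM for T cells. They were 15.0 to 17.9 and 12.3 to 17.4 CPM for myeloid cells, and 14.9 to 23.3 and 9.3 to 15.7 CPM for NK cells. The T cell marker that passed was *TRAC*, and the NK cell marker was *NKG7*. *CTCF*, whose endogenous and induced transcripts are counted together, had 209.9, 211 and 249 CPM in CTCF-WT and 273, 264 and 252 CPM in CTCF-dRBR, so it does not check the labels. In bulk RNA, fewer cells that express a gene and less RNA per cell cannot be told apart.

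Of the 9 members, 7 lie in the MHC on chromosome 6. In GRCh37 coordinates of a lifted Gencode annotation, the heavy chain genes are *HLA-F* at chr6:29690552-29706305, *HLA-E* at chr6:30457286-30461971, *HLA-C* at chr6:31236526-31239907 and *HLA-B* at chr6:31321649-31334844. The loading genes follow in the same complex, *TAP2* at chr6:32789610-32806516, *TAP1* at chr6:32812986-32821593 and *TAPBP* at chr6:33267471-33282061. *B2M* lies outside it at chr15:45003556-45011049, as does *NLRC5* at chr16:57023397-57117443. All 10 rows passed the filter, among 14044 genes in all. The deepest member was *B2M*, with 53940 to 77990 expected counts per library, and the shallowest was *HLA-F*, with 195 to 462 expected counts. Classical heavy chain genes are highly polymorphic, and heavy chain genes resemble each other and their pseudogenes, so reads can be shared between them or lost against a reference allele, and the values of *HLA-B*, *HLA-C*, *HLA-E* and *HLA-F* are uncertain to that extent.

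No member passed the test. With limma-voom (two-sided, Benjamini-Hochberg over all genes tested), 0 of 9 members had an adjusted p under 0.05, as 0% of the 14044 genes did, and the adjusted p of the members lay between 0.187 and 0.912. At an unadjusted p under 0.05 there were 2 members, *TAP2* with the lower level and *B2M* with the higher level in CTCF-dRBR, against 25.4% of all genes. The log2 fold change, CTCF-dRBR against CTCF-WT, was below 0 for 7 of 9 members, as for 50.6% of all genes tested, and the median of the 9 was −0.21, against −0.0076 for all genes tested. The median of the members turned to 0.10 when the trend with GC content was removed from each library. Only *TAP2* had CPM that did not overlap between the groups, 1 of 9 members against 37.5% of all genes tested, and 0 of 9 were higher in CTCF-dRBR without overlap, against 20.0%.

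**Figure D1:**
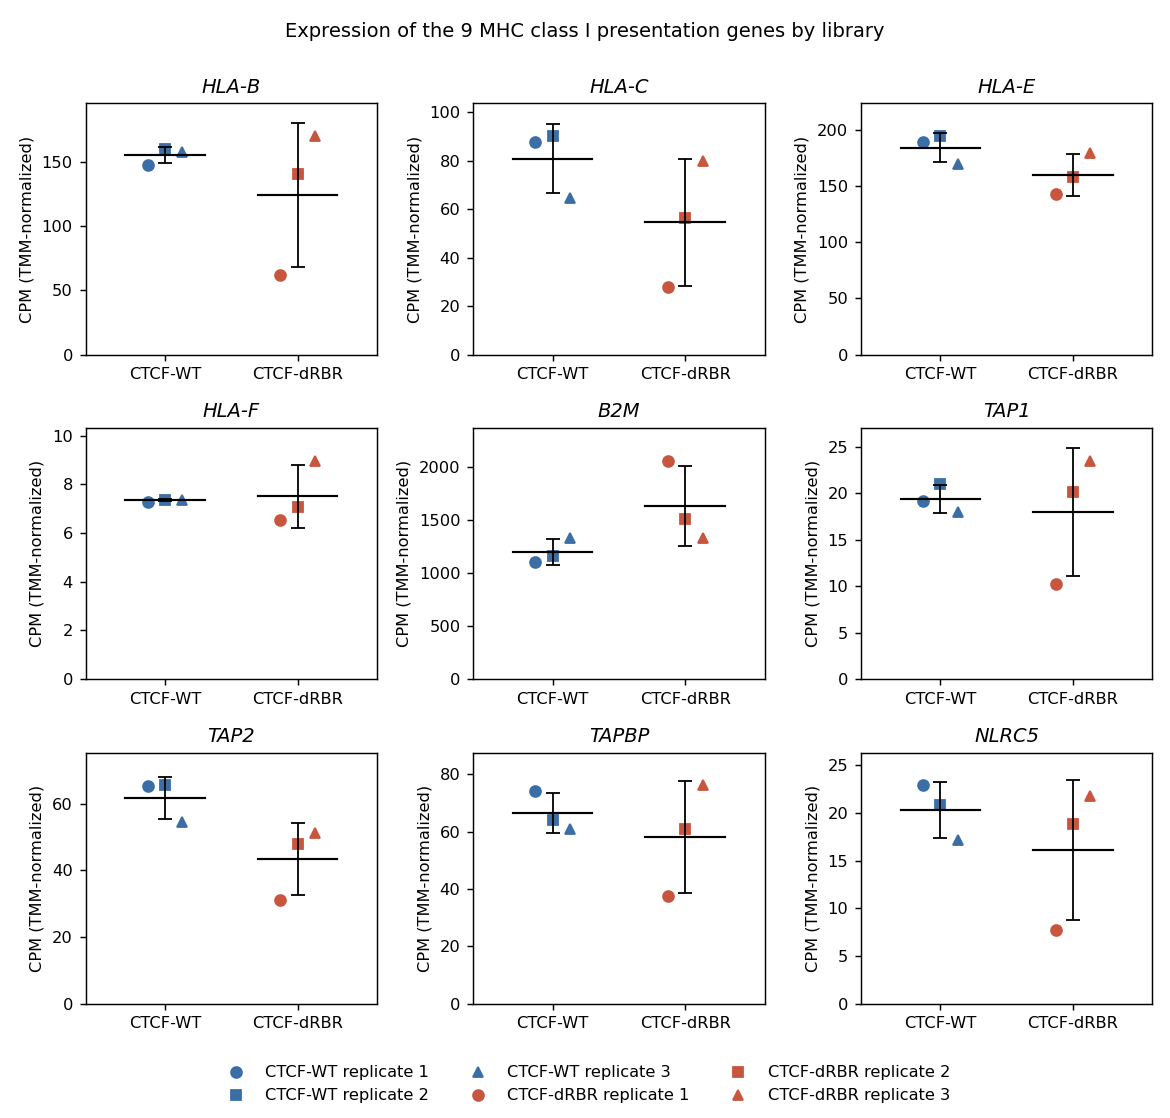
TMM-normalized CPM (y axis, from 0) of the 9 members in the CTCF-WT (blue) and CTCF-dRBR (red) libraries, where each symbol is 1 library, the horizontal line is the mean and the bar is 1 SD (n = 3). CTCF-dRBR replicate 1 (red circle) is the lowest of the 6 libraries for 8 members and the highest for *B2M*, at 2055 CPM.

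The heavy chains present the peptide. *HLA-B*, a classical chain that presents to cytotoxic T cells, had levels of 148, 159.9 and 157 CPM in replicates 1, 2 and 3 of CTCF-WT. In CTCF-dRBR it had 61.8, 140.5 and 170.0 CPM. Replicate 1 lay far below the CTCF-WT range, replicate 2 slightly below it and replicate 3 above it. On the log2 scale the fold change was −0.42 (standard error 0.35, 95% interval −1.27 to 0.43, adjusted p = 0.417 from limma-voom), and it was −0.0083 without CTCF-dRBR replicate 1.

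*HLA-C*, which also serves as a ligand of killer cell receptors, had 87.8, 90.2 and 64.6 CPM in CTCF-WT and 27.7, 56.3 and 80.0 CPM in CTCF-dRBR. The groups overlapped, since CTCF-dRBR replicate 3 exceeded CTCF-WT replicate 3. Its log2 fold change of −0.62 was the lowest among the members (standard error 0.36, 95% interval −1.50 to 0.26, adjusted p = 0.282 from limma-voom). It was −0.26 when CTCF-dRBR replicate 1 was left out.

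*HLA-E*, a nonclassical chain that presents leader peptides of other class I chains to NK cells, had 188.5, 194 and 169 CPM in CTCF-WT and 142.5, 157.5 and 179.5 CPM in CTCF-dRBR. Here too only CTCF-dRBR replicate 3 entered the CTCF-WT range. The log2 fold change was −0.20 (standard error 0.12, 95% interval −0.49 to 0.081, adjusted p = 0.278 from limma-voom). *HLA-F*, a nonclassical chain found mostly inside cells, had 7.30, 7.36 and 7.38 CPM in CTCF-WT and 6.52, 7.06 and 8.97 CPM in CTCF-dRBR. Its CTCF-WT values were nearly equal and lay within the CTCF-dRBR range, for a log2 fold change of 0.028 (standard error 0.16, 95% interval −0.37 to 0.42, adjusted p = 0.912 from limma-voom).

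*B2M* encodes the light chain shared by all class I molecules. It had 1099, 1156 and 1333 CPM in CTCF-WT and 2055, 1512 and 1331 CPM in CTCF-dRBR. CTCF-dRBR replicates 1 and 2 stood above every CTCF-WT library, and replicate 3 fell just under the highest of them, the reverse of the order within CTCF-dRBR for *HLA-B*. The log2 fold change was 0.43 (standard error 0.18, 95% interval 0.0011 to 0.86, unadjusted p = 0.0496 and adjusted p = 0.196 from limma-voom), and it was above 0 in 24 of 24 alternative analyses, between 0.13 and 1.06.

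*TAP1* and *TAP2* encode the 2 subunits of the peptide transporter. *TAP1* had 19.2, 21.0 and 17.99 CPM in CTCF-WT and 10.3, 20.1 and 23.5 CPM in CTCF-dRBR. CTCF-dRBR replicate 1 was below the CTCF-WT range, replicate 2 within it and replicate 3 above it. Its log2 fold change moved from −0.15 (standard error 0.30, 95% interval −0.86 to 0.57, adjusted p = 0.733 from limma-voom) to 0.16 when CTCF-dRBR replicate 1 was left out.

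*TAP2* had 65.2, 65.4 and 54.5 CPM in CTCF-WT and 31.2, 47.9 and 51.2 CPM in CTCF-dRBR. The highest CTCF-dRBR value lay under the lowest CTCF-WT value, as in 17.5% of all genes tested (p = 0.1 from a two-sided exact permutation test, the lowest value this design can give). On the log2 scale *TAP2* had a fold change of −0.50 (standard error 0.20, 95% interval −0.97 to −0.024, unadjusted p = 0.0421 and adjusted p = 0.187 from limma-voom). It was −0.32 without CTCF-dRBR replicate 1, and below 0 in 24 of 24 alternative analyses. The second row of *TAP2*, a read-through transcript into the neighboring class II gene *HLA-DOB* (chr6:32781544-32806599), held 0.783, 1.89 and 0 CPM in CTCF-WT and 0, 0 and 2.13 CPM in CTCF-dRBR. It was listed at 0 in CTCF-WT replicate 3 and in CTCF-dRBR replicates 1 and 2, and RSEM may have divided reads between the rows. With the rows summed, a step added after values had been seen, *TAP2* had 66.0, 67.3 and 54.5 CPM in CTCF-WT and 31.2, 47.9 and 53.4 CPM in CTCF-dRBR, still without overlap.

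*TAPBP*, the gene of tapasin, had 74.4, 64.2 and 61.1 CPM in CTCF-WT and 37.6, 60.9 and 76.1 CPM in CTCF-dRBR. *NLRC5*, the class I transactivator, had 22.9, 20.9 and 17.1 CPM in CTCF-WT and 7.79, 18.8 and 21.7 CPM in CTCF-dRBR. In both genes CTCF-dRBR replicate 1 was by far the lowest library, while replicate 3 lay near the top of the 6. The log2 fold changes were −0.21 for *TAPBP* (standard error 0.25, 95% interval −0.81 to 0.39, adjusted p = 0.557 from limma-voom) and −0.40 for *NLRC5* (standard error 0.37, 95% interval −1.28 to 0.49, adjusted p = 0.458 from limma-voom). They were 0.034 and 0.0034 when CTCF-dRBR replicate 1 was left out.

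**Figure D2:**
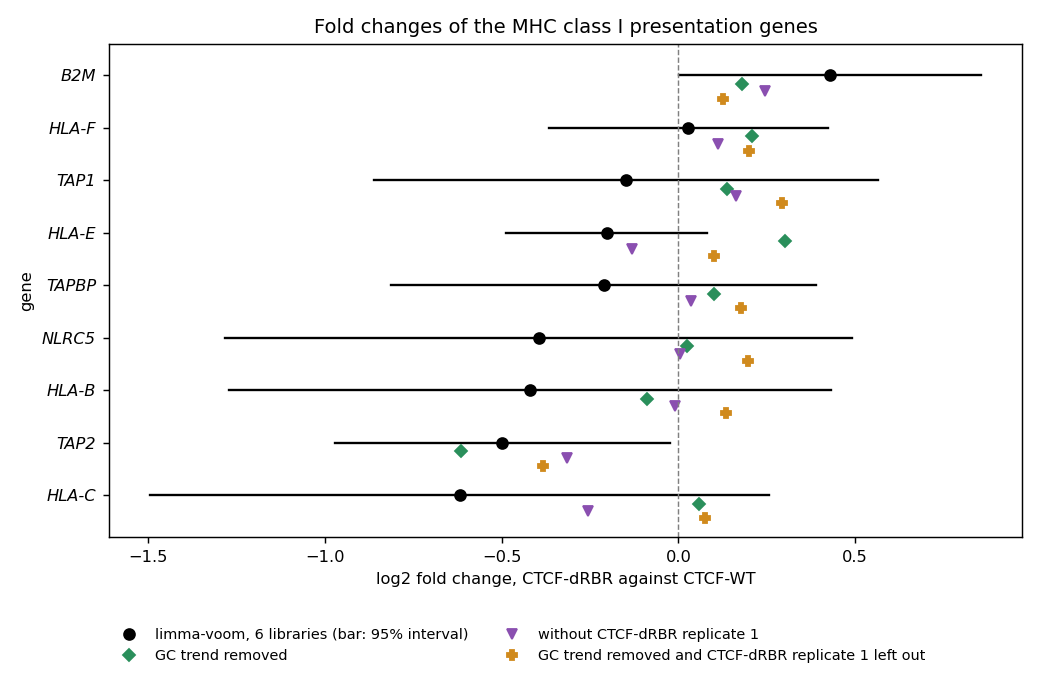
Log2 fold change (x axis) of each member (y axis), CTCF-dRBR against CTCF-WT, from limma-voom on 6 libraries (black circle, with its 95% interval as a bar) and, without intervals, after the GC trend was removed, after CTCF-dRBR replicate 1 was left out, and after both. *TAP2* stays below 0 and *B2M* above 0 under all 4, while *HLA-C* moves from −0.62 to 0.075.

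The library that stood apart was also at the edge of the members' values. CTCF-dRBR replicate 1 was the lowest library for 8 of 9 members, as it was for 41.1% of all genes tested, and the highest for *B2M*, as for 39.4% of all genes. Its log2 CPM lay below the mean of the other 5 libraries by amounts from −1.43 for *HLA-C* and −1.37 for *NLRC5* to −0.31 for *HLA-E* and −0.22 for *HLA-F*. For *B2M* it lay above, by 0.69. Without this library the log2 fold change was smaller in size for 7 of 9 members, as for 72.9% of all genes. The exons of *B2M* hold 41.4% GC and those of *TAP2* 45.2%, against a median of 46.9% over the genes tested, whereas the other 7 members lie between 51.5% for *HLA-F* and 60.9% for *HLA-C*. Across the 9 members the Pearson correlation of GC content with the deviation of CTCF-dRBR replicate 1 was −0.7, and across all genes tested −0.77, from the same library in both cases. *TAP2*, with a GC content below the median, was at −0.85 in this library. When the GC trend was removed from each library by loess, 5 of 9 members changed direction, as did 28.5% of all genes, and *TAP2* had a log2 fold change of −0.62 (adjusted p = 0.123 from limma-voom) and *B2M* 0.18 (adjusted p = 0.169). The part of GC content in the values of the members was not tested.

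**Figure D3:**
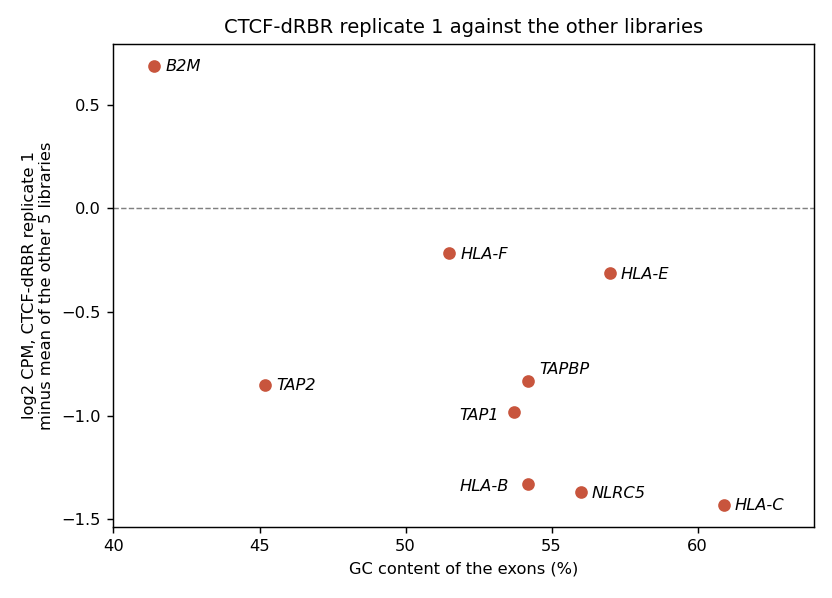
GC content of the exons (x axis, percent) and log2 CPM of CTCF-dRBR replicate 1 minus the mean of the other 5 libraries (y axis) for the 9 members, 1 point each. *B2M*, at 41.4% GC, is the only member above 0, and *HLA-C*, at 60.9% GC, is the lowest.

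Other tools and settings called between 0 and 4 of the 9 members. edgeR's quasi-likelihood test called 0 of 9 at an adjusted p under 0.05, as it called 0% of all genes, and DESeq2 called 0 of 9 against 11.5%. The count was also 0 of 9 with CTCF-dRBR replicate 1 left out, against 3.90% of all genes, with the GC trend removed, against 9.31%, and by limma-trend on log2(TPM + 1), against 5.91%, and on log2(TPM + 0.1), against 5.29%. The fit voomWithQualityWeights, which gave CTCF-dRBR replicate 1 a weight of 0.0969, called 4 of 9, against 68.2% of all genes: *TAP2* (adjusted p = 0.000821), *B2M* (adjusted p = 0.00102), *HLA-C* (adjusted p = 0.00206) and *HLA-E* (adjusted p = 0.0025). The share of members it called was below the share of all genes. CTCF-WT replicate 2 and CTCF-dRBR replicate 2 had weights of 5.65 and 6.19. CTCF-WT replicates 1 and 3 had 1.26 and 0.496, and CTCF-dRBR replicate 3 had 0.472, so this fit rested mostly on 1 library per group. With CTCF-dRBR replicate 1 left out and the GC trend removed, *TAP1* alone was called, with a log2 fold change of 0.29 (adjusted p = 0.0405 from limma-voom), against 23.5% of all genes. Only *TAP2* and *B2M*, 2 of 9 members, kept 1 direction in the main analysis and in 24 alternatives, against 38.4% of the 11167 genes that all of these tested.

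Levels of different genes can be compared in TPM, which are divided by transcript length and scaled to the same total in each library. *B2M* was by far the most abundant member, with a mean of 2345 TPM over the 6 libraries and a rank between 11 and 48 among 20345 protein-coding genes. *HLA-B* followed with 133 TPM, then *HLA-E* with 50.7, *HLA-C* with 33.3, *TAP2* with 13.19, *TAPBP* with 13.18, *HLA-F* with 7.17, *NLRC5* with 6.35 and *TAP1* with 5.73 TPM. In 6 of 6 libraries *B2M* exceeded *HLA-B*, by 11.1 to 54.2 times, and *HLA-B* exceeded *HLA-E*, *HLA-E* exceeded *HLA-C* and *HLA-C* exceeded *TAP2*. The ranges of *HLA-E* and *HLA-C* overlapped across libraries, but those of the other 3 pairs did not. The ranges of *TAPBP* and *HLA-F* and of *NLRC5* and *TAP1* overlapped as well, and their order held in 5 of 6 libraries. The order of the other pairs differed by group. *TAP2* exceeded *TAPBP* in 3 of 3 CTCF-WT libraries and in 0 of 3 CTCF-dRBR libraries, with a TPM ratio of 1.16, 1.66 and 1.14 against 0.707, 0.838 and 0.682. *HLA-F* exceeded *NLRC5* in 0 of 3 CTCF-WT libraries and in 3 of 3 CTCF-dRBR libraries, with a TPM ratio of 0.853, 0.960 and 0.922 against 1.74, 1.19 and 1.07. In CPM the ratio of *TAP2* to *TAPBP* was 0.877, 1.02 and 0.892 against 0.830, 0.787 and 0.673, without overlap, and that of *HLA-F* to *NLRC5* was 0.319, 0.353 and 0.431 against 0.837, 0.375 and 0.413, with overlap. These ratios were computed after their order had been seen and are descriptions.

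**Figure D4:**
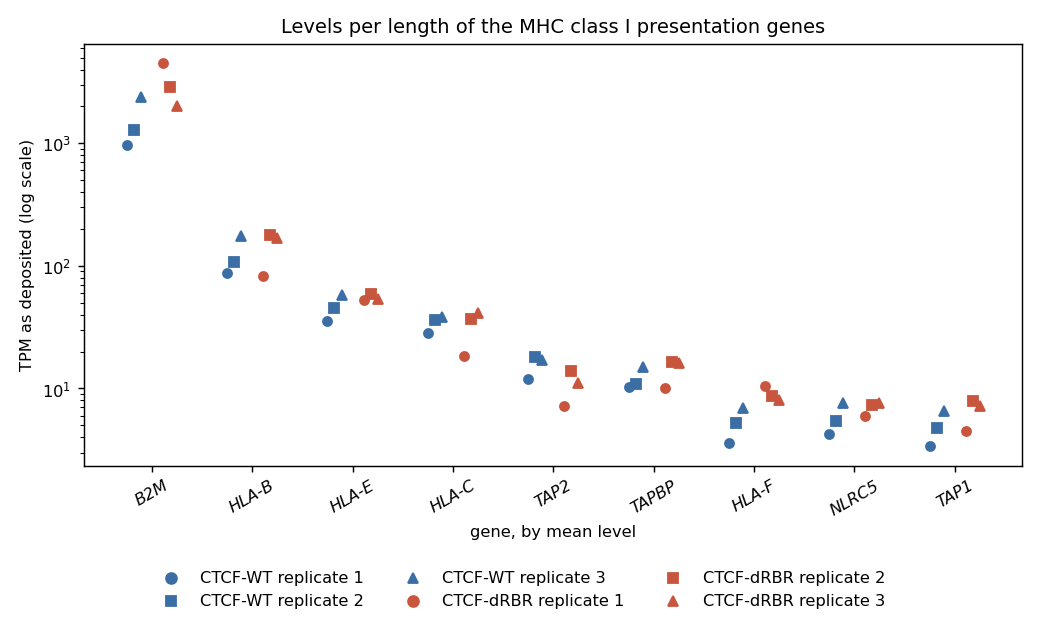
Deposited TPM (y axis, log scale) of the 9 members in each of the 6 libraries, with genes on the x axis in order of mean level. *B2M* lies between 963 and 4508 TPM, above every other member, and the 5 genes from *TAP2* to *TAP1* lie between 3.37 and 18 TPM.

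Between groups, TPM gave another member without overlap than CPM did. The share of a library's TPM that fell on protein-coding genes ran from 30.2% to 63.2%, with the lowest share in CTCF-WT replicate 1 and the highest in CTCF-dRBR replicate 1, so TPM of 1 gene are not directly comparable between libraries. *HLA-F* had 3.60, 5.24 and 6.95 TPM in CTCF-WT and 10.4, 8.70 and 8.08 TPM in CTCF-dRBR, the only member without overlap (two-sided exact permutation test, p = 0.1), against 15.3% of all genes tested. None of the 9 had lower TPM in CTCF-dRBR without overlap, against 2.26%. After rescaling over protein-coding genes, 3 of 9 members had no overlap, against 34.6% of all genes. *HLA-F* then had 11.9, 14.6 and 13.2 TPM in CTCF-WT and 16.5, 15.97 and 18.6 TPM in CTCF-dRBR. *B2M* had 3185, 3549 and 4565 against 7129, 5333 and 4669 rescaled TPM, and *TAP2* had 39.3, 50.2 and 32.7 against 11.3, 25.4 and 25.5. The rescaled levels were thus higher in CTCF-dRBR for *HLA-F* and *B2M* and lower for *TAP2*, each with an exact permutation p of 0.1, the smallest possible.

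Ratios within a library need no scaling between libraries. In all, 6 were computed in both units, those of *TAP2* to *TAPBP* and *HLA-F* to *NLRC5* above included, a choice made after values had been seen. A library's trend with GC content stays in a ratio whose genes differ in GC. *TAP2* has 45.2% and *TAP1* 53.7% GC, and *HLA-F* has 51.5% and *HLA-E* 57.0%. The part of this trend in the ratios was not tested. Counted in TPM, *TAP2* exceeded *TAP1* by 3.53, 3.76 and 2.62 times in CTCF-WT and by 1.58, 1.74 and 1.54 times in CTCF-dRBR, without overlap (two-sided exact permutation test, p = 0.1). In CPM the ratio was 3.39, 3.11 and 3.03 against 3.05, 2.39 and 2.18, and the groups overlapped (exact p = 0.2). The ratio of *HLA-F* to *HLA-E* was higher in every CTCF-dRBR library in both units, at 0.0387, 0.0379 and 0.0436 against 0.0457, 0.0448 and 0.050 in CPM (exact p = 0.1). *B2M* against the sum of the 4 heavy chains was 6.25, 6.54 and 8.6 in TPM in CTCF-WT and 27.3, 10.3 and 7.48 in CTCF-dRBR, which overlapped (exact p = 0.2). That of *HLA-B* to *HLA-C* also overlapped in both units (exact p = 0.2 in TPM and 0.3 in CPM). These p-values are unadjusted over the 12 ratios of both units, and no adjustment can bring them under 0.05.

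The promoters of the members were searched for elements known from class I genes. Promoter entries of RefSeq (GRCh38.p14) were found for 7 of 9 members. The 200 bases before the start site are shown for 1 classical and 1 nonclassical heavy chain, for the light chain and for both transporter genes. This choice was made after values had been seen. *TAP2* and *B2M*, 2 of 9 members, kept 1 direction in every analysis, against 38.4% of the genes that all of these tested. *TAP1* and *HLA-F* are set beside them. Capitals mark the motifs searched on both strands: the interferon response core TTTCNNTT, the CREB/ATF core TGACG of the SXY module, the CCAAT box CCAATCAG and the NF-kappa B core GGGGATTC.
HLA-B, chr6:31357180-31357379, minus strand: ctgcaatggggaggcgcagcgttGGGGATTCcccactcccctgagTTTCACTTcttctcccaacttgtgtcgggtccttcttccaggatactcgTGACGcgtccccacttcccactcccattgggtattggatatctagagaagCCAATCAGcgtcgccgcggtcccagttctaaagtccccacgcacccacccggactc
HLA-F, chr6:29723234-29723433, plus strand: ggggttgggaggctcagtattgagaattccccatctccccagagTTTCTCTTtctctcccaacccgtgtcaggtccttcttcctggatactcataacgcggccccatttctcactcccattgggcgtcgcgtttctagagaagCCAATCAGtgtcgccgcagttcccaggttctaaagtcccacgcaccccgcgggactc
B2M, chr15:44711317-44711516, plus strand: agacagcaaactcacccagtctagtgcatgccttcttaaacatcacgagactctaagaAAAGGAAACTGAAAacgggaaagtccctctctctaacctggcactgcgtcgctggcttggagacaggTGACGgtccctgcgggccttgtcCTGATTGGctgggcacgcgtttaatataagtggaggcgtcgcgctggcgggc
TAP1, first start site, chr6:32853705-32853904, minus strand: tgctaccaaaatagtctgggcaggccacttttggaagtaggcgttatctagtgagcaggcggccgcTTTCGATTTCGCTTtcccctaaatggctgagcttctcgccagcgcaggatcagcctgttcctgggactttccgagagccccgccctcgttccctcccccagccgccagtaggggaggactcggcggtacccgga
TAP2, chr6:32838740-32838939, minus strand: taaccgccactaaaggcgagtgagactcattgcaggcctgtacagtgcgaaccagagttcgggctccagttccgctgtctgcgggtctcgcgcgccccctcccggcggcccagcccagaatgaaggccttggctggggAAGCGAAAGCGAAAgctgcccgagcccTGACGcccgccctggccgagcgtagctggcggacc

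In *HLA-B* all 4 motifs were found, in the order NF-kappa B core, interferon core, TGACG and CCAAT box from the far end to the start site, and *HLA-C* held the same 4 in the same order. *HLA-F* held the interferon core and the CCAAT box. In *B2M* the interferon core occurred in a pair of overlapping copies on the reverse strand, followed by TGACG and by a CCAAT box on the reverse strand. *TAP1*, *TAP2* and *TAPBP* also held overlapping pairs of the interferon core, on the forward strand in *TAP1* and on the reverse strand in *TAP2* and *TAPBP*, and *TAP2* in addition TGACG. The second start site listed for *TAP1* held none of the 4. Of the 35116 promoter entries of 300 bases, 22.8% held TTTCNNTT, 24.6% TGACG, 3.97% CCAATCAG and 0.888% GGGGATTC.

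Several members overlap other genes, and the methods do not say how the counting used the strand. *TAP1* overlaps *PSMB9*, a subunit of the immunoproteasome on the other strand, and *TAPSAR1*. *PSMB9* had 21.6, 17.8 and 14.4 CPM in CTCF-WT and 13.4, 13.1 and 15.5 CPM in CTCF-dRBR, with a log2 fold change of −0.34 (adjusted p = 0.262 from limma-voom). *TAPSAR1* had −0.0036 (adjusted p = 0.984) and 26.8 to 31.9 CPM. *HLA-F* overlaps *HLA-F-AS1*, at 0.524 to 1.10 CPM, and pseudogenes under 1 CPM, and *PATL2*, whose start lies 35 bases from that of *B2M* on the other strand, had 4.73 to 7.98 CPM. The genes in the files that overlap *HLA-B* and *NLRC5* were at most at 0.120 CPM in any library.

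The rest of the pathway was read in 5 lists of genes, with 0 genes past an adjusted p under 0.05 in any of them. Of 18 genes for loading and processing, all tested, 4 were higher and 5 lower in CTCF-dRBR at an unadjusted p under 0.05, against 12.6% and 12.8% of all genes, with a median log2 fold change of −0.31. Of 14 factors of class I promoters the counts were 1 and 1 (median −0.049), of 10 interferon receptor and signaling genes tested 2 and 0 (median 0.071), of 11 class I-like genes tested 1 and 1 (median 0.026) and of 13 turnover genes tested 1 and 2 (median −0.20). The filter removed *SOCS1* and *SOCS3* from the interferon list, 6 genes from the class I-like list and *MARCH4* from the turnover list, and *SUSD6* was not matched by symbol.

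**Figure D5:**
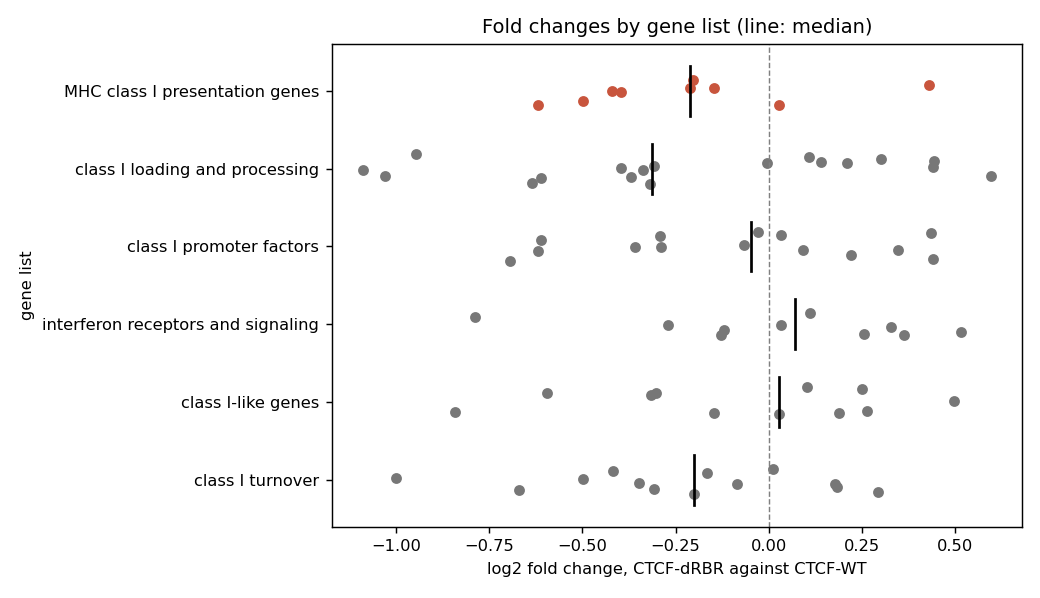
Log2 fold change (x axis), CTCF-dRBR against CTCF-WT, of the tested genes of each list (y axis), with 1 point per gene, spread vertically for legibility, and the median as a line. The medians are −0.21 for the 9 members and −0.31 for the 18 loading and processing genes, and no point is past an adjusted p under 0.05.

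The most abundant loading genes were chaperones and a proteasome activator. *CALR*, the chaperone calreticulin that holds class I molecules in the loading complex, had 642, 639.8 and 590.2 CPM in CTCF-WT and 496, 424 and 505 CPM in CTCF-dRBR. No CTCF-dRBR library reached the CTCF-WT range in CPM (log2 fold change −0.40, standard error 0.10, adjusted p = 0.135 from limma-voom). The direction turned with the GC trend removed (0.020, adjusted p = 0.963) and on log2(TPM + 1) (0.28, adjusted p = 0.659), where the median of all genes was 0.404. DESeq2 called *CALR* lower (adjusted p = 0.0169, against 11.5% of all genes called), as did voomWithQualityWeights (adjusted p = 0.000197, against 68.2%). With the GC trend removed and CTCF-dRBR replicate 1 left out, *CALR* was also called lower (−0.26, adjusted p = 0.0231, against 23.5%). *CANX*, the membrane chaperone calnexin that binds new heavy chains, had a log2 fold change of 0.21 (adjusted p = 0.264), and *PSME1*, a subunit of the proteasome activator, had −0.0051 (adjusted p = 0.966). The other genes of this list at an unadjusted p under 0.05 were named after their values were seen. *HSPA5*, the chaperone BiP, had 67.4, 70.1 and 54.8 CPM in CTCF-WT and 36.5, 32.4 and 31.3 CPM in CTCF-dRBR, which gave −0.95 on the log2 scale (standard error 0.14, adjusted p = 0.0959 from limma-voom). *HSPA5* was below 0 in all 24 alternative analyses and passed the threshold in 5 of them. Among these were DESeq2 (adjusted p = 1.29e-06, against 11.5% of all genes) and limma-voom without CTCF-dRBR replicate 1 (adjusted p = 0.0306, against 3.90%). *PSME2*, the partner of *PSME1*, had −0.61, *GANAB*, a glucosidase that trims the glycan of new chains, −1.09, and *PSMB10*, an immunoproteasome subunit, −1.03. The 4 peptidases *ERAP1*, *ERAP2*, *TPP2* and *NPEPPS* had log2 fold changes of 0.44, 0.60, 0.44 and 0.30, with adjusted p between 0.133 and 0.194. *ERAP2*, which trims peptides in the endoplasmic reticulum, had 69.1, 77.0 and 85.6 CPM in CTCF-WT and 139.5, 114 and 100.3 CPM in CTCF-dRBR. These 4 have exons of 37.4% to 40.3% GC, below the median of all genes. Of the genes lower at an unadjusted p under 0.05, *CALR*, *PSME2*, *GANAB* and *PSMB10* have 55.5%, 51.3%, 54.3% and 63.0%. *HSPA5*, also lower, has 44.2%, below the median. The part of GC content in these values was not tested.

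Among the factors that assemble on class I promoters, *RFX5* and *RFXANK*, subunits of the RFX complex that *NLRC5* works through, had log2 fold changes of −0.068 (adjusted p = 0.648 from limma-voom) and −0.70 (adjusted p = 0.210). *NFYB*, a subunit of the CCAAT-binding factor NF-Y, had 0.35 (adjusted p = 0.281). *RFXANK* had 14.3, 24.7 and 35.9 CPM in the CTCF-dRBR libraries and 32.8 to 43.2 CPM in CTCF-WT, with the lowest value again in CTCF-dRBR replicate 1. *NFYA* and *IRF2*, named after their values were seen, had −0.61 (adjusted p = 0.139) and 0.43 (adjusted p = 0.185). In interferon signaling, the kinase *JAK1* had 185, 194 and 229 CPM in CTCF-WT and 322, 282 and 264 CPM in CTCF-dRBR, without overlap (log2 fold change 0.51, standard error 0.12, adjusted p = 0.127 from limma-voom). The kinase *TYK2* had −0.79 (adjusted p = 0.214), the receptor chain *IFNGR2* 0.032 (adjusted p = 0.850), and *IFNGR1*, named after its values were seen, 0.36 (adjusted p = 0.158).

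Of the class I-like genes, *FCGRT*, the heavy chain of the neonatal Fc receptor, which also pairs with the light chain, had 60.6, 62.7 and 47.5 CPM in CTCF-WT and 10.1, 39.3 and 60.7 CPM in CTCF-dRBR. The log2 fold change of *FCGRT* was −0.84 with a standard error of 0.56 (adjusted p = 0.328 from limma-voom), and −0.21 without CTCF-dRBR replicate 1. *MICB*, a stress ligand of NK cells, had −0.31 (adjusted p = 0.199), and *MR1*, which presents vitamin metabolites, had 0.19 (adjusted p = 0.308). *PROCR* and *CD1E*, named after their values were seen, had −0.60 and 0.50 (adjusted p = 0.140 and 0.185). Of the turnover genes, *HM13*, the signal peptide peptidase, had 76.7, 82.0 and 68.7 CPM in CTCF-WT and 43.6, 46.8 and 51.8 CPM in CTCF-dRBR. The groups did not overlap, with a log2 fold change of −0.67 (standard error 0.12, adjusted p = 0.0959 from limma-voom). *HM13* was below 0 in all 24 alternative analyses and passed the threshold in 5 of them. Among these were DESeq2 (adjusted p = 2.89e-05, against 11.5% of all genes) and limma-voom without CTCF-dRBR replicate 1 (adjusted p = 0.0426, against 3.90%). *DERL1*, a component of the degradation channel of the endoplasmic reticulum, had −0.084 (adjusted p = 0.484), and *IRF2BP2*, a repressor that partners with *IRF2*, had 0.29 (adjusted p = 0.149). *TMEM127*, named after its values were seen, had −0.42 (adjusted p = 0.181).

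With the GC trend removed, 7 of the 66 tested genes of the lists passed an adjusted p under 0.05 from limma-voom, against 9.31% of all genes. The lower ones in CTCF-dRBR were *HSPA5* (log2 fold change −1.10, adjusted p = 0.0191), *HM13* (−0.53, adjusted p = 0.024), *PSME2* (−0.44, adjusted p = 0.0276) and *NFYA* (−0.68, adjusted p = 0.0407). The higher ones were *IRF2BP2* (0.53, adjusted p = 0.0344), *ERAP2* (0.32, adjusted p = 0.0354) and *JAK1* (0.53, adjusted p = 0.0456). On log2(TPM + 1) none of the 7 passed, with adjusted p between 0.0619 and 0.969. There *HM13* had −0.027 and *PSME2* 0.026, while the median of all genes was 0.404.

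The mean of the members' centered log2 CPM was −0.589 in CTCF-dRBR replicate 1 and between 0.0029 and 0.215 in the other 5 libraries. Among 11624 other protein-coding genes, those with the highest Pearson correlation with this profile over the 6 libraries were *MXD4* (0.9997), *CST3* (0.9995), *TMEM184B* (0.9989), *ITFG3* (0.9989) and *GPR153* (0.9988). *MXD4* had 21.9, 22.7 and 18.1 CPM in CTCF-WT and 7.29, 17.4 and 23.3 CPM in CTCF-dRBR. A correlation of at least 0.9 was reached by 24.3% of these genes, over 6 points of which CTCF-dRBR replicate 1 lies far from the rest. Of the members, 6 correlated with their own mean at 0.92 or more, *HLA-E* at 0.89 and *HLA-F* at 0.71, and *B2M* at −0.92.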

How the data were processed

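Total RNA, depleted of ribosomal RNA, was sequenced from 3 CTCF-WT and 3 CTCF-dRBR libraries. The authors trimmed reads with Trim Galore (0.6.3), aligned them to GRCh37 with STAR (2.7.9a) and quantified Gencode genes with RSEM (1.3.1). The deposited expected counts are not normalized, and the deposited TPM were scaled by the authors over all genes, small RNAs included. The methods call the reads paired-end, the labels single-end. Columns were matched to samples by their titles, and 92 spike-in rows, with 0 counts, were left out.

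A gene was kept if it reached 1 CPM in any library, which left 14044. Counts were TMM-normalized in edgeR (4.0.16) and compared by limma-voom (limma 3.58.1, R 4.3.3) without covariates, as in the study, with two-sided tests and Benjamini-Hochberg adjustment (threshold 0.05). Alternatives were edgeR and DESeq2 (1.42.0) on rounded counts, voomWithQualityWeights, other normalizations and filters, removal of GC or length trends by loess (span 0.5, degree 2, prior count 1), limma-trend on log2 TPM with a pseudocount of 1 or 0.1, also rescaled over protein-coding genes, leaving out each library, and a replicate block. Simulated data with known changes were used to test limma-voom, edgeR, DESeq2, voomWithQualityWeights, limma-trend, the block and the GC step. The simulation held no GC trend, no replicate effect and no library that stood apart. It therefore cannot show how the GC step, the block or the weights act where these are present. A count of 0 allows up to 3 counts, 0.0566 to 0.1 CPM, and covers counting error only. GC content, from a Gencode annotation lifted to GRCh37, was found for 13654 genes tested (97.2%). Promoter coordinates are GRCh38.p14.

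The named genes were the members, CTCF, the 3 genes of highest mean TPM in each list and every list gene past the threshold (0 genes), genes that overlap a member or share its start, and the 5 genes most like the members' mean profile. Other list genes, at an unadjusted p under 0.05, were added after their values were seen. Members and lists were chosen with earlier results of these data known. Other assays of the series were not analysed here.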

Additional observations from a re-analysis of the deposited data

How the results depend on the processing

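Of the 9 members, 2, *TAP2* and *B2M*, had the same direction in the main analysis and 24 alternatives, against 38.4% of the 11167 genes that all of these tested. The adjusted p of *TAP2* ranged from 0.000821 to 0.487 and that of *B2M* from 0.00102 to 0.492 over these alternatives. The number of members past the threshold was 0 except with voomWithQualityWeights (4) and with removal of the GC trend together with leaving out CTCF-dRBR replicate 1 (1). For the 66 tested genes of the other pathway lists it was 0 except in these alternatives. It was 9 with DESeq2, against 11.5% of all genes, and 43 with voomWithQualityWeights, against 68.2%. With the GC trend removed it was 7, against 9.31%, and 17 with CTCF-dRBR replicate 1 also left out, against 23.5%. Leaving out 1 library gave 0 to 3, where 3 came without CTCF-dRBR replicate 1, against 3.90%. For all genes it was 0 except for 1619 (DESeq2), 9583 (voomWithQualityWeights), 1271 (GC trend removed), 3145 (GC trend removed and CTCF-dRBR replicate 1 left out), 830 (log2(TPM + 1)), 743 (log2(TPM + 0.1)), and 0 to 535 when 1 library was left out, where 535 came without CTCF-dRBR replicate 1. The causes of these differences were not tested.

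The median log2 fold change of the members, −0.21, became 0.10 with the GC trend removed, 0.13 with the GC trend removed and CTCF-dRBR replicate 1 left out, 0.26 on log2(TPM + 1) and 0.29 on log2(TPM + 0.1), and ranged from −0.43 to 0.0034 when 1 library was left out, where 0.0034 came without CTCF-dRBR replicate 1. Members without overlap in TPM numbered 1, against 15.3% of all genes tested, and 3 after rescaling over protein-coding genes, against 34.6%. They numbered 1 to 4 without 1 library. Leaving out a library cannot add overlap for any gene, and the share of all genes was not computed there. The difference of mean TPM turned negative after rescaling for *HLA-B* (−25.8), *HLA-E* (−12.4), *TAPBP* (−3.08) and *NLRC5* (−1.10), and that of *HLA-C* ranged from −6.57 to 4.98 without 1 library.

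On the log2 TPM scales the median of all genes was 0.404 with a pseudocount of 1 and 0.539 with 0.1, and it was 0.194 without a filter on low counts. With a pseudocount of 1, log2 fold changes changed sign for *HLA-B* (0.20), *HLA-E* (0.28), *TAP1* (0.36), *TAPBP* (0.22), *NLRC5* (0.26), *CALR* (0.28), *PSME1* (0.50), *RFX5* (0.42), *MICB* (0.10), *DERL1* (0.48), *PSME2* (0.026) and *TMEM127* (0.099). With 0.1 they were 0.20, 0.29, 0.42, 0.23, 0.31, 0.28, 0.51, 0.43, 0.12, 0.49, 0.027 and 0.12 for the same genes. Relative to the median of all genes on log2(TPM + 1), the values were −0.21 for *HLA-B*, −0.56 for *HLA-C*, −0.12 for *HLA-E*, −0.041 for *TAP1*, −0.94 for *TAP2*, −0.19 for *TAPBP*, −0.14 for *NLRC5*, 0.31 for *HLA-F* and 0.66 for *B2M*.

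With the GC trend removed, the sign changed for *HLA-C* (0.058), *HLA-E* (0.30), *TAP1* (0.14), *TAPBP* (0.10), *NLRC5* (0.024), *CALR* (0.020), *PSME1* (0.38) and *RFX5* (0.035). With CTCF-dRBR replicate 1 also left out, it changed for *HLA-B* (0.13), *HLA-C* (0.075), *HLA-E* (0.10), *TAP1* (0.29), *TAPBP* (0.18), *NLRC5* (0.20), *PSME1* (0.15), *RFX5* (0.057) and *FCGRT* (0.099). Leaving out 1 library gave ranges of −0.11 to 0.11 for *HLA-F*, −0.38 to 0.16 for *TAP1*, −0.43 to 0.034 for *TAPBP*, −0.67 to 0.0034 for *NLRC5*, −0.027 to 0.0079 for *PSME1*, −0.12 to 0.0054 for *RFX5* and −0.023 to 0.11 for *IFNGR2*. The remaining sign changes were *HLA-F* with voomWithQualityWeights (−0.036), *HLA-F* (−0.051) and *IFNGR2* (−0.050) without a filter, *PSME1* with DESeq2 (0.00039), with upper quartile normalization (0.033) and in protein-coding genes alone (0.018), *PSME1* (0.069) and *RFX5* (0.0054) with library size only, and *PSME1* (0.22) and *RFX5* (0.061) with the length trend removed. On TPM rescaled over protein-coding genes they were *PSME1* (0.040), *DERL1* (0.023), *MR1* (−0.086) and *IRF2BP2* (−0.21).

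Replicate numbers are shared by the groups, but same-numbered libraries did not deviate together (correlations −0.506, 0.161 and −0.629). Correlations between libraries with different numbers ran from −0.368 to 0.566. Whether same-numbered libraries were prepared together cannot be told from these values, because CTCF-dRBR replicate 1 stood apart in them. With the replicate block, 0 members passed the threshold, as without it, and genes at an unadjusted p under 0.05 went from 3569 to 1423. With the replicate block and the GC trend removed, 0 genes passed, the 7 list genes called without the block had adjusted p between 0.149 and 0.175, the median of the members was 0.11, and the values that changed sign were *HLA-C* (0.055), *HLA-E* (0.30), *TAP1* (0.14), *TAPBP* (0.11), *NLRC5* (0.036), *CALR* (0.020), *PSME1* (0.38) and *RFX5* (0.034).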
